A study of Homo sapiens with 44 samples.

Results

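P3H2, TFCP2L1, SGPP2, TMEM63C, HS3ST6, ZBTB7C and MRAS were followed across 14 treatment groups of ZR-75-1 cells, an estrogen receptor positive human breast cancer line. These 7 genes, of 14884 named on the array, were listed because their transcripts were among those raised most by a progestin. They were chosen by their measured log2 differences of progesterone (P4) or medroxyprogesterone acetate (MPA) from vehicle, so those differences are described below without a test. Each gene had 1 transcript cluster, the unit that the array summarises, and 7 of 7 lay above the 30th percentile of every array. The name late-induced suited only some of them. All 7 were already higher at 4 h, and HS3ST6, ZBTB7C and MRAS stood highest at 8 h, not 16 h.

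The series held 44 arrays, with 5 in the E2+P4 group and 3 in each of the other 13 groups. In 13 groups, written E2p, cells had been given 10 nM estrogen (E2) for 72 h before the overlay. An overlay is a concentrated hormone mixture added onto the medium in place, so the earlier E2 was not washed out. The overlays were P4 at 10 nM, MPA at 10 nM or ethanol vehicle for 4, 8 or 16 h. At 16 h they were also E2 at 10 nM with MPA at 10 nM (E2+MPA), E2 with P4 at 10 nM (E2+P4), or E2 alone. A vehicle group was taken at 0 h. The last group, called unprimed here, had vehicle for 72 h and vehicle again for 16 h. No group had a progestin without E2 priming, so the need for priming cannot be read from these arrays. Overlays were staggered and RNA was isolated together at the end. The labels number replicate wells of 1 line without saying whether they were separate cultures, so a p-value here reflects array-to-array spread only, part or all of it possibly technical.

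P4 is the natural ligand of the progesterone receptor, a ligand-activated transcription factor whose own gene is raised by estrogen in many breast cancer cells. MPA is a synthetic derivative of P4 that binds the same receptor and also has affinity for the androgen and glucocorticoid receptors. The 7 genes belong to no single pathway. P3H2 encodes a prolyl 3-hydroxylase that modifies collagen, HS3ST6 a sulfotransferase that edits heparan sulfate chains, and SGPP2 a phosphatase that removes the phosphate of sphingosine 1-phosphate. TMEM63C belongs to a family of mechanically gated ion channels, and MRAS is a RAS-related GTPase that joins SHOC2 and a phosphatase to act on RAF kinases. TFCP2L1 is a transcription factor of the CP2 and grainyhead family, known for kidney epithelium and, in mouse, for naive pluripotency. ZBTB7C is a BTB and zinc finger transcription factor.

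Values are log2 levels after RMA, the array summary that corrects background and scales arrays to each other, and they compare 1 gene between groups, never 2 genes with each other. Array medians lay between 5.52 and 5.67, and arrays correlated with their own group at 0.970 to 0.991 on average. Measured luminal epithelial markers averaged from 7.57 (KRT8) to 12.2 (SPDEF) over all arrays, with EPCAM at 10.7 and KRT18 at 11.7. The fibroblast markers DCN, LUM and THY1 averaged 2.70, 3.87 and 6.19. Of 3 immune markers tested, CD68, a lysosomal protein not limited to immune cells, was higher in E2+MPA (9.08) than in E2 (8.37), and 0 of 4 endothelial and 0 of 1 fibroblast markers passed there. In E2+P4 none of these 3 lists had a call. Luminal markers did move: of 9, 3 rose and 3 fell in E2+P4 against E2, and 3 rose and 5 fell in E2+MPA. PGR, the progesterone receptor gene, fell by 2.55 and 3.50, and ESR1, the estrogen receptor gene, by 1.79 and 2.34, in E2+P4 and E2+MPA. The part of these markers in the results was not tested. In bulk RNA, a change in the share of cells that express a gene and a change in RNA per cell cannot be told apart.

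The bases before the annotated start sites are shown for the 3 genes with 1 listed start and for the first start of SGPP2, the only one of the 13 start sites listed for the 7 genes that held TGTTCT. All sequences are RefSeq, build GRCh38.p14, read 5′ to 3′, ending 1 base before the start site. Capitals mark TGTTCT (core hexamer of steroid response elements), TGACTCA (AP-1 site), TGACC (core of estrogen response elements) and GGGCGG (GC box), each on either strand.
SGPP2, first start, chr2:222423738-222423987 (plus strand): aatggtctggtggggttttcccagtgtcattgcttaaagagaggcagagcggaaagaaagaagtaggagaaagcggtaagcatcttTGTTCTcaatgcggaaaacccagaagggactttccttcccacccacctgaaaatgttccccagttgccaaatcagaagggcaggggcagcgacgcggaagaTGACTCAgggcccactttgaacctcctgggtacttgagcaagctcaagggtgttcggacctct
TMEM63C, chr14:77181548-77181797 (plus strand): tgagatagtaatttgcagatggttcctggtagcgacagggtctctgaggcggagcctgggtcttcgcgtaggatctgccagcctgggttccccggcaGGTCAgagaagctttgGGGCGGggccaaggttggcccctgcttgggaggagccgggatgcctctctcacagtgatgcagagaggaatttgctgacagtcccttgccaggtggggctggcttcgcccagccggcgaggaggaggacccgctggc
TFCP2L1, chr2:121285203-121285452 (minus strand): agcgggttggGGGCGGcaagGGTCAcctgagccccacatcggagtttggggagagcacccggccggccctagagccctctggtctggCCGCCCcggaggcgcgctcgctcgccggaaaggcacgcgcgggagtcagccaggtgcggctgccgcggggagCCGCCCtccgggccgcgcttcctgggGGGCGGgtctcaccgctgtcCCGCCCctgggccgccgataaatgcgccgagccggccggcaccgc
HS3ST6, chr16:1918416-1918665 (minus strand): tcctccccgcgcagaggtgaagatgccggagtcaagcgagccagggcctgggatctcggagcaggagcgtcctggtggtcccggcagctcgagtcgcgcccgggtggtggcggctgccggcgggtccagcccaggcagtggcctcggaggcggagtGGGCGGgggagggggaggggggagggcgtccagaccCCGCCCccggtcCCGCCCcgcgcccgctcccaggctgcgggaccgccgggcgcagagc

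SGPP2 held TGTTCT beginning 164 bases before its first start and TGACTCA beginning 63 bases before it. TGTTCT was in 12.4% of the 35116 windows of 250 bases in the table and TGACTCA in 4.2%. TMEM63C and TFCP2L1 each held GGTCA, the other strand of TGACC, as did both of the first starts of ZBTB7C, so 4 of 13 windows, from 3 genes, had it against 32.6% of all windows. A GC box stood before at least 1 start of 7 of 7 genes, in 8 of 13 windows, against 42.6% of all windows. The full palindromic progesterone response element, AGAACA then NNN then TGTTCT, was in 0.00285% of all windows and in none of the 13. Searches for the full palindromic estrogen response element (GGTCA then NNN then TGACC), the forkhead core TGTTTAC and the TATA box TATAAA also found no match in the 13, against 0.0399%, 2.98% and 10.7% of all windows. A pair of CP2-family CCAG motifs with NNNNNN between them matched only the second start of P3H2, against 3.27% of all windows. TGTTCT and TGACC form parts of the full elements searched. These windows are short, and a match is a description of letters, not a measured binding site.

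The enzyme genes differed most in their timing. P3H2 had 7.30, 7.59 and 7.36 in P4 at 4 h, 8.36, 8.39 and 8.40 at 8 h, and 9.15, 9.09 and 9.16 at 16 h, against vehicle levels of 4.99, 4.88 and 5.09 at 16 h. In MPA it had 7.53, 7.34 and 7.01 at 4 h, 8.46, 8.53 and 8.51 at 8 h, and 8.87, 9.05 and 9.31 at 16 h. The progestin arrays stood far above every vehicle array, and the 16 h arrays stood above the 8 h arrays of the same progestin with no overlap. The log2 difference from vehicle of the same time was 2.13, 3.06 and 4.14 for P4 and 2.01, 3.18 and 4.09 for MPA at 4, 8 and 16 h, with an SE of 0.17 each. At 16 h this was 17.7-fold for P4 and 17.0-fold for MPA. Those folds rest on a low vehicle level. Every P3H2 vehicle array at 16 h lay under the 40th percentile of its array, and vehicle averaged 5.32 at 8 h and 4.99 at 16 h. Among 13466 named genes tested, P3H2 ranked 3 for P4 and 2 for MPA at 16 h.

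SGPP2 was the slowest of the 7. At 4 h it had 7.39, 7.46 and 7.35 in P4 and 7.54, 6.96 and 6.88 in MPA, against 5.99, 6.47 and 6.51 in vehicle. At 16 h it had 9.71, 9.73 and 9.67 in P4 and 9.61, 9.96 and 9.83 in MPA, against 6.54, 6.17 and 5.76 in vehicle. The groups did not overlap at either time, but the early gap was small. Its log2 difference at 4 h was 30.5% of that at 16 h for P4 and 22.0% for MPA, whereas for the other 6 genes this share lay between 49.1% (P3H2, MPA) and 115% (HS3ST6, P4). Its rank for P4 was 162 at 4 h, 23 at 8 h and 5 at 16 h.

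HS3ST6 had the opposite course, with a crest at 8 h. It had 8.66, 8.82 and 8.59 in P4 at 4 h, 9.68, 9.91 and 9.87 at 8 h, and 8.40, 8.49 and 8.23 at 16 h. Its vehicle arrays had 6.55, 6.30 and 6.34 at 8 h and 6.52, 6.50 and 6.49 at 16 h. Every P4 array at 16 h lay below every P4 array at 8 h, and still above every vehicle array. The log2 difference from vehicle was 2.15, 3.42 and 1.87 for P4 and 1.89, 3.20 and 1.68 for MPA at 4, 8 and 16 h, with an SE of 0.13. The 8 h value was 10.7-fold for P4, rank 1 of the 13466 named genes. At 16 h the rank was 52.

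TMEM63C and MRAS, the channel and signalling genes, differed in what followed 8 h. TMEM63C had 10.68, 10.62 and 10.59 in P4 at 4 h, 11.60, 11.65 and 11.62 at 8 h, and 11.58, 11.62 and 11.63 at 16 h, against 8.37, 8.44 and 8.03 in vehicle at 16 h. Its P4 and MPA levels at 8 h overlapped those at 16 h. The difference from vehicle was nonetheless greater at 16 h, 3.33 ± 0.09 (SE) against 3.06 ± 0.09 at 8 h for P4, because vehicle averaged 8.28 at 16 h and 8.56 at 8 h. MRAS had 8.09, 8.52 and 8.43 in P4 and 8.72, 8.68 and 8.77 in MPA at 8 h, against 6.01, 5.19 and 5.64 in vehicle. At 16 h it had 7.94, 7.78 and 7.60 in P4 and 8.06, 8.45 and 8.26 in MPA, against 5.75, 5.83 and 5.57 in vehicle. It stood highest at 8 h under both progestins, and every MPA array lay above every P4 array at 4, 8 and 16 h, as for 8.72%, 4.19% and 8.37% of all clusters. At 4 h this separation of MRAS was nearly a tie, with 7.457 in the lowest MPA array and 7.456 in the highest P4 array. Its vehicle arrays were uneven, and its differences were the least precise of the 7, with an SE of 0.25.

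The transcription factor genes split in the same way. TFCP2L1 had 8.18, 8.34 and 8.38 in P4 at 4 h, 9.62, 9.76 and 9.68 at 8 h, and 9.91, 9.75 and 9.95 at 16 h, against 6.47, 6.20 and 6.09 in vehicle at 16 h. The 8 and 16 h levels overlapped under P4 and under MPA, and the log2 difference at 8 h was 88.9% of the 16 h difference for P4 and 95.8% for MPA. It ranked 1 for MPA at 8 h, at 9.78-fold. ZBTB7C had 9.28, 9.31 and 9.34 in P4 at 8 h and 8.39, 8.50 and 8.38 at 16 h, against vehicle levels of 6.06, 6.03 and 5.98 at 8 h and 6.06, 6.49 and 5.79 at 16 h. Its P4 level at 16 h lay below that at 8 h with no overlap and close to the 8.43 average at 4 h. The log2 difference was 2.22, 3.29 and 2.31 for P4 and 1.99, 3.07 and 1.92 for MPA at 4, 8 and 16 h, with an SE of 0.17.

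**Figure D1:**
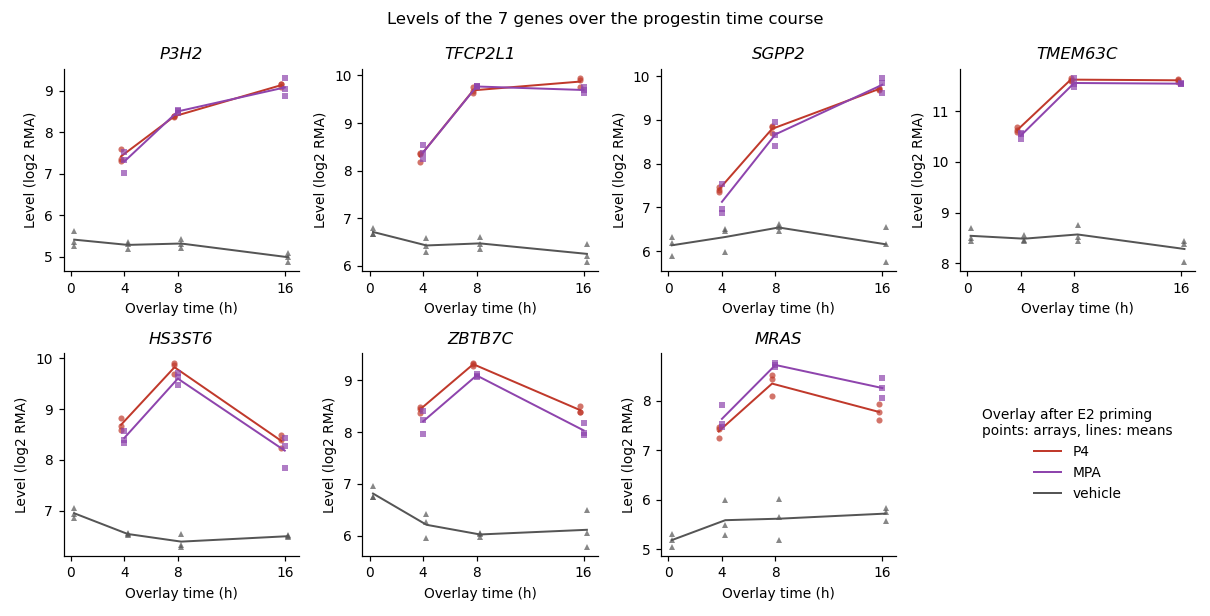
Levels (log2 RMA, vertical axes, each gene on its own scale) against overlay time in hours for P4, MPA and vehicle after E2 priming, with a point per array and lines through the group means. Progestin levels of P3H2 and SGPP2 are highest at 16 h, those of TFCP2L1 and TMEM63C overlap between 8 and 16 h, and those of HS3ST6, ZBTB7C and MRAS are lower at 16 h than at 8 h.

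Over the set, 7 of 7 genes had every progestin array above every vehicle array at 4, 8 and 16 h. Such a separation in the upward direction was found in 8.49%, 14.4% and 14.5% of all 41374 clusters tested for P4 at 4, 8 and 16 h, and in 7.6%, 14.2% and 11.8% for MPA. The median log2 difference of the 7 genes was 2.13, 3.06 and 3.33 for P4, against -0.03, 0.00140 and -0.01 for all clusters. Since these contrasts chose the genes, nothing further is read from those counts.

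The arrays with fresh E2 are not among the P4, MPA and vehicle arrays whose differences listed the genes, so they were tested. They repeat the progestin contrast in the same primed line, with the earlier E2 not washed out. A rise was therefore likely beforehand, and the calls below are not independent support for the listing. The comparison was whether the 7 genes stood higher with a progestin plus E2 than with E2 alone at 16 h. All 7 rose in E2+P4 (limma, adjusted p of at most 0.05), against 5.95% of all clusters called higher. All 7 also rose in E2+MPA, against 8.04% of clusters called higher. The E2 arrays are shared by both comparisons. The median log2 difference of the 7 was 3.08 with P4 and 3.01 with MPA, and 0.0066 and 0.017 over all clusters.

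P3H2 had 8.19, 9.23, 8.51, 8.48 and 9.06 in E2+P4, against 5.38, 5.33 and 5.29 in E2. The gap was 3.36 ± 0.15 on the log2 scale (SE), 10.3-fold, with limma adjusted p = 2.08e-18. In E2+MPA it had 9.03, 9.05 and 9.11, a log2 difference from E2 of 3.73 ± 0.17 (13.2-fold, limma adjusted p = 3.25e-18). The E2+P4 arrays were spread widely, with replicates 2 and 5 level with E2+MPA and the others below. SGPP2 was even between the arms, with 9.50, 9.91, 9.90, 9.80 and 9.74 in E2+P4 and 10.04, 9.72 and 9.62 in E2+MPA, against 6.26, 6.83 and 6.54 in E2. Its log2 differences were 3.23 ± 0.16 and 3.25 ± 0.18 (limma adjusted p = 3.13e-17 and 4.65e-16). HS3ST6 had 7.93, 8.34, 8.35, 8.33 and 8.34 in E2+P4 and 7.55, 7.54 and 7.81 in E2+MPA, against 6.17, 5.99 and 6.07 in E2. E2+MPA arrays thus lay between the other arms, with log2 differences from E2 of 2.18 ± 0.12 for E2+P4 and 1.56 ± 0.13 for E2+MPA (limma adjusted p = 4.04e-16 and 2.65e-11).

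TMEM63C had the smallest spread of the 7 within E2+P4, with 11.45, 11.60, 11.32, 11.43 and 11.56 in E2+P4 and 11.52, 11.34 and 11.35 in E2+MPA, against 8.35, 8.30 and 8.53 in E2. It was 8.44-fold higher in E2+P4 (limma adjusted p = 2.53e-24) and 8.06-fold higher in E2+MPA. MRAS was the least even. It had 6.44, 7.61, 6.73, 6.82 and 7.94 in E2+P4, 8.48, 8.34 and 8.55 in E2+MPA, and 5.81, 5.19 and 5.79 in E2. No E2+P4 array reached an E2+MPA array, and every E2+P4 array lay above every E2 array. The fold over E2 was 2.85 in E2+P4 (limma adjusted p = 5.26e-06) and 7.25 in E2+MPA (limma adjusted p = 8.46e-11).

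TFCP2L1 had 8.83, 9.82, 9.16, 9.03 and 9.76 in E2+P4 and 10.02, 10.21 and 10.03 in E2+MPA, against 6.26, 6.36 and 6.03 in E2. E2+MPA gave its highest level of all 14 groups, 10.09 ± 0.11 (SD, n = 3), with no overlap with the next group, P4 at 16 h. It was 8.57-fold over E2 in E2+P4 and 14.6-fold in E2+MPA (limma adjusted p = 5.18e-18 and 3.42e-19). ZBTB7C had 7.65, 8.18, 7.76, 7.92 and 8.45 in E2+P4 and 7.70, 7.84 and 8.02 in E2+MPA, against 6.05, 5.79 and 6.21 in E2. These arms overlapped each other and stood clear of E2, at 3.93-fold for E2+P4 and 3.57-fold for E2+MPA (limma adjusted p = 1.99e-12 and 1.21e-10).

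**Figure D2:**
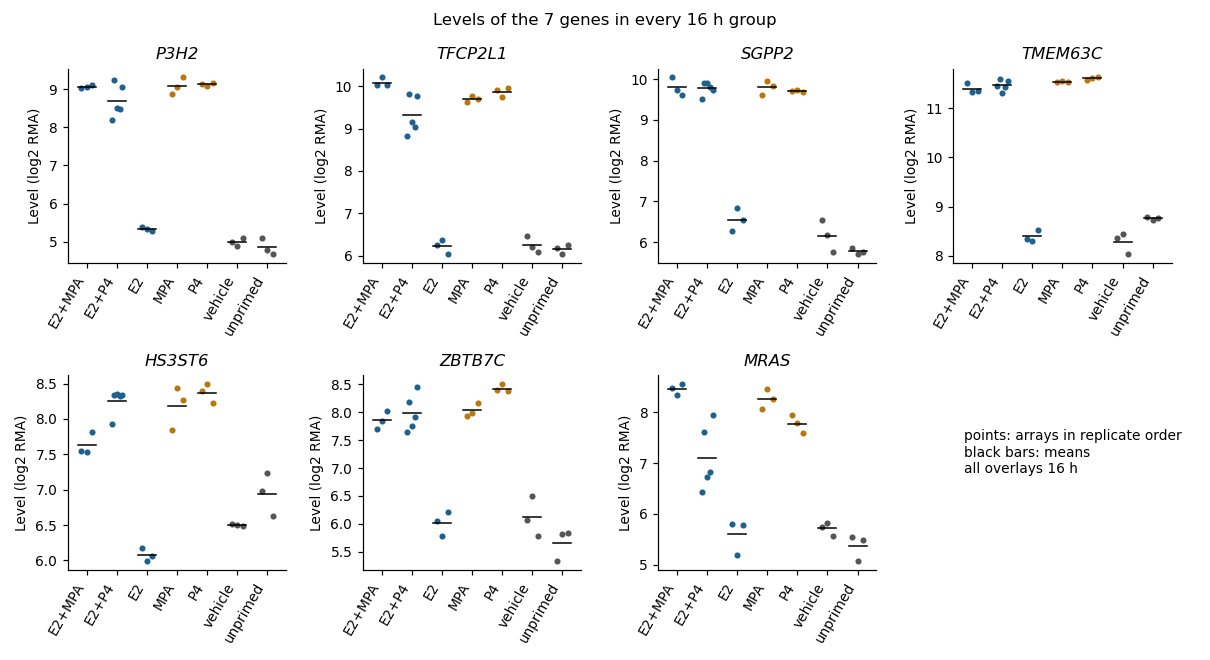
Levels (log2 RMA, vertical axes, each gene on its own scale) in the 7 groups with a 16 h overlay, with a point per array in replicate order and a bar at the mean. Replicates 2 and 5 of E2+P4 stand above the other 3 for P3H2, TFCP2L1, TMEM63C, ZBTB7C and MRAS, but not for SGPP2 or HS3ST6.

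Replicates 2 and 5 were the highest E2+P4 arrays for P3H2, TFCP2L1, TMEM63C, ZBTB7C and MRAS, with the narrowest spread for TMEM63C. The wider progestin response ran alongside it. Other clusters were selected as at least 2-fold higher under P4 than vehicle at 16 h, at an adjusted p of at most 0.05. These were 532, and their median log2 difference from the E2 mean was 0.72, 1.18, 0.84, 0.87 and 1.2 in E2+P4 replicates 1 to 5, and 1.17, 1.35 and 1.28 in E2+MPA. Replicates 2 and 5 were thus level with the lowest E2+MPA array by this measure and the other replicates below it. For 378 clusters at least 2-fold lower by the same cut, the medians were -1.08, -1.25, -0.86, -0.82 and -1.28 in E2+P4. They were -1.42, -1.40 and -1.39 in E2+MPA, so there replicates 2 and 5 fell short of every E2+MPA array. The part of this wider response in the differences between the arms was not tested.

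P4 and MPA, both at 10 nM for 16 h beside 10 nM E2, were compared directly. Of the 7 genes, 2 were higher and 1 lower in E2+MPA (limma), against 2.66% of all clusters called higher and 3.42% called lower. MRAS rose 2.55-fold in E2+MPA relative to E2+P4, a log2 difference of 1.35 ± 0.23 (SE, limma adjusted p = 0.000145). The SE draws on the spread within all 14 groups, whereas the SD of MRAS was 0.64 in E2+P4 and 0.11 in E2+MPA. TFCP2L1 rose by 0.77 ± 0.14 (1.7-fold, limma adjusted p = 0.000459). HS3ST6 fell by 0.63 ± 0.12 (1.54-fold lower in E2+MPA, limma adjusted p = 0.000579). None of these 3 had overlapping arms, a separation found in 4.45% of clusters upward and 5.63% downward.

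For the other 4 genes the difference did not pass, and its 95% interval on the log2 scale ran from 0.06 to 0.67 for P3H2, from -0.30 to 0.35 for SGPP2, from -0.23 to 0.10 for TMEM63C and from -0.44 to 0.16 for ZBTB7C. The interval of TMEM63C was the narrowest of the 7. The 3 calls were lost when only the arrays of these 2 groups were fitted, where limma adjusted p was 0.195 for TFCP2L1, 0.0862 for HS3ST6 and 0.119 for MRAS. Without E2+P4 replicate 2, P3H2 was called too, at 0.50 (limma adjusted p = 0.0176).

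Without fresh E2, the same compounds at matched dose and time served as a description. MRAS was higher in MPA than in P4 by 0.25, 0.38 and 0.48 at 4, 8 and 16 h on the log2 scale, with an SE of 0.25. HS3ST6 differed by -0.26, -0.22 and -0.19 and ZBTB7C by -0.23, -0.22 and -0.39. TFCP2L1 differed by 0.08, 0.08 and -0.18. So MRAS and HS3ST6 had the sign they had beside E2, while TFCP2L1 at 16 h had the opposite sign, its arms overlapping. Of these differences, the 95% interval left out 0 only for ZBTB7C at 16 h, where it ran from -0.73 to -0.05.

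**Figure D3:**
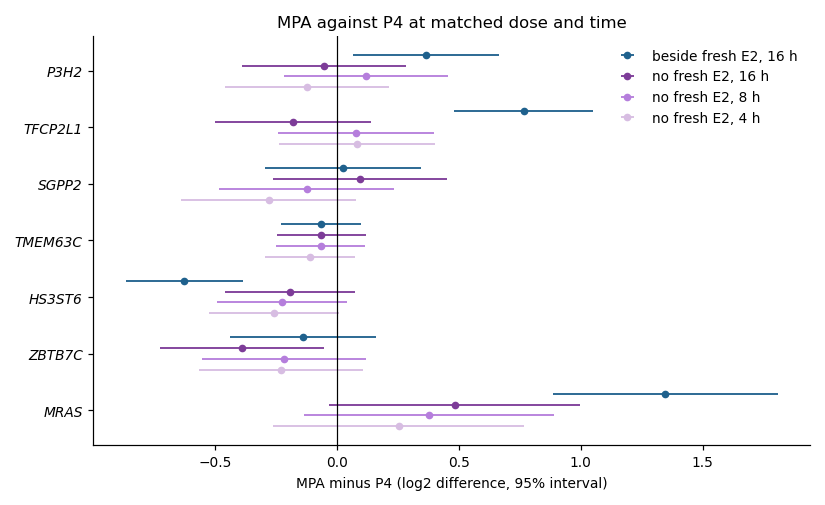
Log2 difference MPA minus P4 (horizontal axis) with 95% intervals for the 7 genes beside fresh E2 at 16 h and without fresh E2 at 16, 8 and 4 h. The intervals beside E2 for MRAS (from 0.89), TFCP2L1 (from 0.48) and HS3ST6 (up to -0.39) clear 0 by more than any without fresh E2.

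Setting each arm with fresh E2 beside the same progestin without it, also a description, TFCP2L1 was lower by 0.55 in E2+P4 than in P4 and higher by 0.39 in E2+MPA than in MPA. The E2+P4 arrays overlapped the P4 arrays, and the E2+MPA arrays lay above every MPA array. HS3ST6 was lower by 0.55 in E2+MPA than in MPA, with no overlap, and by 0.12 in E2+P4 than in P4. The share of all clusters separated in these comparisons is not given here. MRAS averaged 7.11 in E2+P4 and 7.77 in P4, with overlap, and 8.46 in E2+MPA and 8.26 in MPA. SGPP2 had nearly the same level in all 4 progestin groups at 16 h, between 9.70 and 9.80 on average, and no neighbour in that order was separate from the next.

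Estrogen without a progestin moved each of the 7 genes less than a progestin did at 16 h, and in different directions. Among 13466 named genes in E2p E2 over unprimed cells, HS3ST6 still ranked 151 from the lowest and SGPP2 169 from the highest. In cells given E2 for 72 h and E2 again for 16 h, 3 of 7 genes differed from unprimed cells, 1 higher and 2 lower, against 3.26% of all clusters called higher and 5.42% called lower. SGPP2 had 6.26, 6.83 and 6.54 in E2p E2, against 5.85, 5.70 and 5.76 in unprimed cells, and rose 1.7-fold (limma adjusted p = 0.00301). HS3ST6 had 6.17, 5.99 and 6.07, against 6.98, 7.23 and 6.63 in unprimed cells, and was 1.83-fold lower in E2p E2 (limma adjusted p = 1.05e-05). TMEM63C had 8.35, 8.30 and 8.53, against 8.78, 8.73 and 8.77, and was 1.29-fold lower in E2p E2 (limma adjusted p = 0.00591), a call lost when only the arrays of these groups were fitted (limma adjusted p = 0.0772). None of the 3 overlapped, as for 13.6% of clusters upward and 14.8% downward. Log2 differences of 0.49 for P3H2, 0.35 for ZBTB7C, 0.23 for MRAS and 0.06 for TFCP2L1 did not pass (limma adjusted p from 0.0625 to 0.881).

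At the end of priming, E2p vehicle at 0 h differed from unprimed cells in 3 of 7 genes, all higher, against 4.57% of all clusters called higher. ZBTB7C had 6.95, 6.75 and 6.74 in E2p vehicle at 0 h, against 5.33, 5.82 and 5.84 in unprimed cells, and rose 2.22-fold (limma adjusted p = 3.38e-06). P3H2 had 5.62, 5.36 and 5.25, against 5.11, 4.77 and 4.67, and rose 1.47-fold (limma adjusted p = 0.0203). TFCP2L1 had 6.68, 6.79 and 6.67, against 6.19, 6.04 and 6.25, also 1.47-fold (limma adjusted p = 0.0158). The unprimed arrays were the lower ones for each of these genes, with no overlap, as for 15% of clusters. The groups also differ in the 16 h overlay and in the ethanol dilution that their labels state. With the overlay matched, E2p vehicle at 16 h minus unprimed at 16 h was 0.14 for P3H2, 0.09 for TFCP2L1 and 0.45 for ZBTB7C on the log2 scale, as a description, and the arrays overlapped for each. The same difference was -0.48 for TMEM63C, -0.44 for HS3ST6 and 0.35 for MRAS, with no overlap, and 0.39 for SGPP2, with overlap. For MRAS the separation was narrow, with 5.57 in the lowest E2p vehicle array and 5.55 in the highest unprimed array. The share of all clusters separated in this comparison is not given here. The call of P3H2 was lost without E2p vehicle 0 h replicate 1, unprimed replicate 2 or unprimed replicate 3 (limma adjusted p = 0.127, 0.0822 and 0.113), and that of TFCP2L1 without E2p vehicle 0 h replicate 2 or unprimed replicate 2 (limma adjusted p = 0.0668 and 0.0837).

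Vehicle groups differed among themselves for some genes. The 0 h vehicle group, whose label states another ethanol dilution than those of the later vehicle groups, is the baseline here, so vehicle time and dilution cannot be told apart. Relative to 0 h, ZBTB7C differed by -0.60, -0.79 and -0.70 and HS3ST6 by -0.41, -0.56 and -0.45 at 4, 8 and 16 h of vehicle on the log2 scale, with no overlap at any time. Among 13466 named genes, ZBTB7C ranked 66, 20 and 28 from the lowest and HS3ST6 239, 63 and 127. The share of all clusters separated between vehicle times is not given here, so lack of overlap in this paragraph is a description only. TFCP2L1 differed by -0.28, -0.24 and -0.46, again with no overlap. P3H2 differed by -0.12, -0.09 and -0.42, without overlap at 16 h only. MRAS was higher by 0.54 at 16 h with no overlap. SGPP2 was higher by 0.19, 0.40 and 0.02, without overlap at 8 h only. Fresh E2 at 16 h left HS3ST6 at its lowest level of the 14 groups, 6.08 ± 0.09 (SD, n = 3), below every vehicle array at 16 h. Each of these vehicle differences was smaller than the progestin differences of the same gene.

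**Figure D4:**
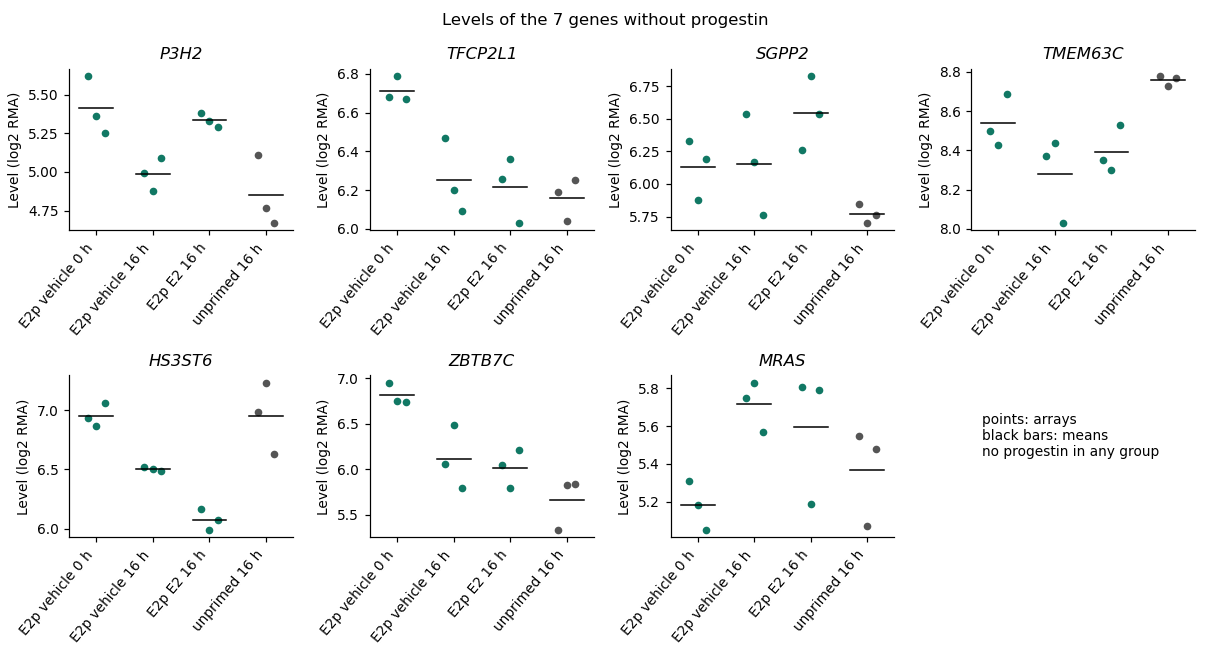
Levels (log2 RMA, vertical axes, each gene on its own scale) in the groups without progestin, with a point per array and a bar at the mean. ZBTB7C is highest at the end of priming (6.81 on average) and HS3ST6 is lowest after fresh E2 (6.08).

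The relatives of the 7 genes did not share their size of change. In E2+P4 against E2, 0 of 19 measured relatives reached the smallest of the 7 differences, 1.51 for MRAS. That difference ranked 46 from the highest of 13466 named genes. Few genes of any kind rise that far, so the count says nothing particular about relatives. The largest in either direction was SGPP1, the other sphingosine 1-phosphate phosphatase, which fell by 0.83 ± 0.12 (SE, limma adjusted p = 2.83e-06) while SGPP2 rose. P3H3 and P3H4, a hydroxylase and a related protein without that activity, fell by 0.33 and 0.42 while P3H2 rose. TMEM63B fell by 0.29, and UBP1 of the CP2 family by 0.34. ZBTB7B moved with ZBTB7C, by 0.69 ± 0.08 (limma adjusted p = 2.06e-08). Of the other heparan sulfate 3-O-sulfotransferases, HS3ST1 rose by 0.32 and HS3ST3A1 fell by 0.64. RRAS, RRAS2 and HRAS did not pass with P4, and with MPA RRAS rose by 0.70 and RRAS2 by 0.52 (limma adjusted p = 1.22e-05 and 0.00977).

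**Figure D5:**
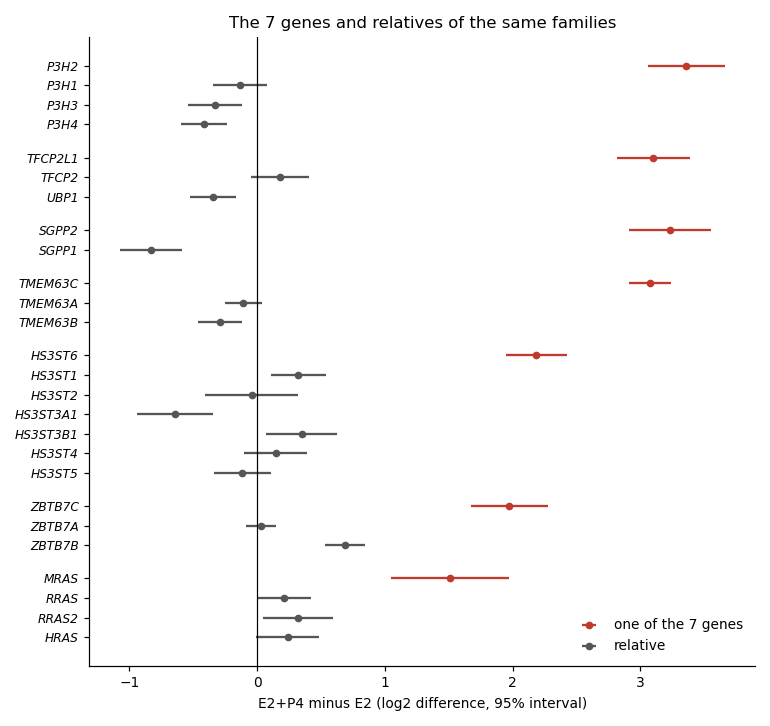
Log2 difference E2+P4 minus E2 at 16 h (horizontal axis) with 95% intervals for each of the 7 genes and for the measured relatives under it. All 7 genes lie at 1.51 or above and the highest relative, ZBTB7B, at 0.69.

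Genes of the surrounding pathways were counted from lists drawn up with earlier results of these arrays known. In E2+P4 against E2, background shares were 5.95% higher and 7.92% lower. Of 11 measured genes of sphingosine 1-phosphate metabolism and signalling other than SGPP2, 5 rose and 1 fell, with a median of 0.17 against 0.0066 over all clusters. SPNS2, which exports sphingosine 1-phosphate, rose by 1.18, the lipid phosphatase gene PLPP1 by 0.82 and the receptor gene S1PR2 by 0.69. The gene that fell was SGPP1, by 0.83. With MPA, 5 of the 11 rose and 2 fell, against 8.04% and 11.8% of all clusters, and SPNS2 rose by 1.83. Of 15 ceramide genes, 2 rose and 2 fell with P4, among them the sphingomyelin synthase gene SGMS1 (up by 0.44) and the ceramide synthase gene CERS2 (down, -0.36).

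Of 22 measured genes that build or edit heparan sulfate other than HS3ST6, 1 rose and 6 fell with P4, and 1 rose and 7 fell with MPA, at medians of -0.15 and -0.09. HPSE, which cleaves the chains, fell by 0.55 with P4, and EXT1, which extends them, by 0.42. Among 10 heparan sulfate core proteins, SDC1 rose by 0.81 with P4 while GPC6 fell by 1.18 and SDC2 by 1.10. With MPA, 3 of the 10 rose and 3 fell.

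Around P3H2, 9 measured genes of collagen hydroxylation and folding gave 1 higher and 3 lower with P4, and 1 higher and 5 lower with MPA. COLGALT1, which adds sugar to collagen, rose by 0.42 with P4, while LOXL1, an oxidase that crosslinks elastin and collagen, fell by 0.68. Of 16 listed collagen IV and basement membrane genes only 4 were measured, and none of these was a collagen IV gene. Of the 4, AGRN alone passed with P4, at -0.26, and 0 of 4 with MPA. Of 5 other CP2 and grainyhead genes, GRHL2 rose by 0.38 and UBP1 fell with P4, and with MPA GRHL1 rose too. Of 6 BTB zinc finger genes, ZBTB7B, BCL6 and ZBTB16 rose with P4, and 2 of 6 with MPA. Among 4 TMEM63 and PIEZO channel genes, TMEM63B fell in both arms and the other 3 did not pass. Of 6 other RAS-family genes, RIT1 and RALB rose with P4, by 0.40 and 0.37, and 4 of 6 rose with MPA. Of 9 genes of the SHOC2 complex and RAF pathway, 2 rose and 2 fell with P4, MAP2K1 rising by 0.37 and SOS2 by 0.39.

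Over the 14 group means the 7 genes resembled each other to different degrees, which follows in part from how they were chosen. Pearson correlation was highest between P3H2 and TFCP2L1 (0.992) and lowest between SGPP2 and HS3ST6 (0.654). HS3ST6 was closest to ZBTB7C (0.961). Outside the set, the named genes nearest to the average profile were GREB1L (0.993), the clock gene PER1 (0.992), PACSIN1 (0.990), USP7 (0.989) and FHL3 (0.989). Nearest to single genes were ANO6 for P3H2 (0.995), GREB1L for TFCP2L1 (0.997), CALD1 for SGPP2 (0.994), SRMS for TMEM63C (0.990), ETV7 for HS3ST6 (0.978), SLBP for ZBTB7C (0.988) and DIAPH1 for MRAS (0.986). The 14 points share arrays and are dominated by the contrast of progestin with none. The range of group means was 2.57 for GREB1L and 0.78 for USP7 on the log2 scale, against 4.28 for P3H2, so a like shape did not mean a like size.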

How the data were processed

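The deposited table holds log2 expression of 53617 transcript clusters on 44 arrays. The submitters' processing notes name RMA and limma, and the authors made the log2 values by RMA. The series text names a Gene 1.0 ST chip, whereas the cluster identifiers matched a Gene 2.0 ST annotation, and gene names come from that annotation. Clusters above the 30th percentile of their array on at least 3 arrays (41374) entered 1 fit of 14 group means in limma 3.58.1 (R 4.3.3), two-sided, with Benjamini-Hochberg adjustment over all of them and calls at 0.05. Only contrasts free of the arrays used for listing were tested, apart from the cut that selected the 532 and 378 clusters of the wider response. The scripts were tested on simulated data. Alternatives covered arrays fitted, weights, scaling, filter, threshold, a replicate block and each replicate left out. Deviations of same-numbered arrays (replicates 1, 2 and 3) correlated at 0.399, 0.115 and 0.133 between E2+MPA and E2+P4. Between E2+MPA and E2 the values were 0.260, 0.272 and -0.084, and between E2+P4 and E2 0.240, 0.105 and -0.067. Whether the numbers pair arrays is thus not settled, and the labels do not state a shared culture. The main fit treats the arrays as unpaired. The genes and lists were chosen with earlier results of these data known. Named genes are the 7, up to 3 called genes of each list of smallest adjusted p, family relatives in place of a computed closest paralog, and the genes nearest in profile. No columns were left unmapped. The number of arrays limits the precision.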

Additional observations from a re-analysis of the deposited data

Results flagged for a closer look

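HS3ST6 in E2+P4 had 1 array apart from the rest, replicate 1 at 7.93 against 8.33 to 8.35 in the other 4. The gap was 0.941 of the whole range, above the limit of 0.71 for 5 arrays. Chance alone passes that limit in about 1 of 20 sets of 5 values. The check was made for 7 genes on the same 5 arrays, so the checks are not independent of each other. Replicate 1 was also the lowest E2+P4 array for the other genes except TMEM63C.

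The effect of fresh E2 on TFCP2L1 had opposite signs beside the progestins, higher in every E2+MPA array than the MPA mean and lower in every E2+P4 array than the P4 mean, a gap of 0.94 on the log2 scale. This difference between the effects was not tested. For TMEM63C, every array with fresh E2 beside a progestin lay below the mean of that progestin alone. Every E2 array lay above the vehicle mean of 8.28, which the vehicle array at 8.03 pulled down. The E2 arrays (8.35, 8.30 and 8.53) overlapped the vehicle arrays (8.37, 8.44 and 8.03), so the sign beside vehicle is uncertain. E2+P4 arrays also overlapped P4 arrays, whereas every E2+MPA array lay below every MPA array. The effect beside vehicle exceeded that beside P4 by 0.25 and that beside MPA by 0.25 (differences of -0.25 and -0.25). These differences were not tested either.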

How the results depend on the processing

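All 7 genes were called in E2+P4 over E2 and in E2+MPA over E2 under every alternative run. In E2+MPA over E2+P4, 3 were called, with 0 when only the compared arrays were fitted and 0 at an adjusted p of at most 0.0001, and 3 to 4 with 1 array left out. In E2p E2 over unprimed, 3 were called, with 5 under array weights (whose estimation stopped short of its convergence tolerance, here and below), 5 with the interquartile range as a covariate and 1 at the stricter threshold, and in E2p vehicle 0 h over unprimed, 3 were called, with 1 at the stricter threshold and 1 to 4 with 1 array left out, 1 being without unprimed replicate 2. The number of clusters called changed more. It was 5738, 8202, 2517, 3592 and 5022 in the 5 comparisons in the order E2+P4 over E2, E2+MPA over E2, E2+MPA over E2+P4, E2 over unprimed and 0 h over unprimed, against 1626, 2912, 261, 837 and 1218 at the stricter threshold. Fitting only the compared arrays gave 2971 for E2+P4 over E2, 18 for E2+MPA over E2+P4 and 1956 for E2 over unprimed, and array weights gave 6121 for the last. Without E2+MPA replicate 2, 1122 clusters separated the progestin arms.

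Signs turned only for differences near 0 that were not called. SGPP2 in E2+MPA over E2+P4 was -0.10 under array weights and ran from -0.10 to 0.11 with 1 array left out. TFCP2L1 in E2 over unprimed was -0.010 under array weights and ran from -0.014 to 0.15. HS3ST6 in 0 h over unprimed was -0.030 with array medians subtracted and ran from -0.15 to 0.15. The replicate block changed no call of the 7 genes (7, 7, 3, 3 and 3 called in the order above). MRAS in E2+MPA over E2+P4 was 1.53 with the block, which treats equal replicate numbers as pairs in every comparison. For TMEM63C in E2 over unprimed the call was lost with the compared arrays only (limma adjusted p = 0.0772), as was that of P3H2 in 0 h over unprimed (0.0692). In E2 over unprimed, P3H2 and ZBTB7C were called under array weights (limma adjusted p = 0.0273 and 0.0242) and with the covariate (0.0447 and 0.0330). Of 336 recomputed untested differences from vehicle, 32 moved, all with 0 h vehicle in place of vehicle of the same time, and none turned sign. The causes were not tested. No second cluster of any of the 7 genes was there to compare. At the 40th percentile of the array, 5 of 308 values of the 7 genes lay at or under it, and none at the 20th.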
